A study of Mus musculus with 3 samples.

Results

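The genes described here are the 36 listed members of glycolysis and of the control of lactate and pyruvate, chosen by name as entries of the deposited expression table, in which all 36 were found among 22757 named genes. They cover glucose uptake, each glycolytic enzyme with its isozymes, the enzymes that set fructose 2,6-bisphosphate, lactate dehydrogenase, the lactate carriers and the pyruvate dehydrogenase step. RNA-seq was deposited for 3 mouse (Mus musculus) pancreatic tumour cell lines of the HI-Panc progression model, labelled by stage as localized, invasive or metastatic, with 1 library each (n = 1 per stage). All 3 lines carry the engineered genotype of the labels, which includes p16-/-. The culture medium was DMEM plus 10% serum. The labels describe cobalt chloride at 100 ng/ml for 24 h, an agent used to mimic hypoxia, in the same words for all 3 samples, and leave unsaid which libraries, if any, had received it. An untreated partner library was not analysed here. The tissue label of the localized line is body wall, that of the invasive line pancreatic tissue and that of the metastatic line liver. Groups follow the stage label. Body wall is at odds with a localized pancreatic tumour, and whether the labels of the localized and invasive lines were exchanged cannot be settled from the labels. An exchange would swap every value given here for those lines and the order of the stages. Strain, sex and the number of animals or clones behind each line are not given in the sources used here, and a cultured line is a selected population.

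Glycolysis splits glucose into pyruvate in the cytosol. Hexokinase traps glucose as its phosphate, phosphofructokinase is the committed and most regulated step, and pyruvate kinase makes the final ATP. Lactate dehydrogenase turns pyruvate into lactate, and monocarboxylate transporters carry lactate across the membrane. Pyruvate dehydrogenase, which PDK kinases switch off, instead converts pyruvate to acetyl-CoA inside the mitochondrion. Tumour cells commonly run this pathway fast and many of its genes are targets of the hypoxia-inducible factor HIF-1. Most steps have several isozymes encoded by separate genes that differ between tissues, so a cell sets both the amount of a step and which isozyme supplies it.

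Values are FPKM, fragments scaled to transcript length and to the library's mapped fragments. This is a scale per length on which the levels of different genes can be set side by side. Differences between libraries are given in log2(FPKM + 1), a scale on which changes of weakly expressed genes look smaller than they are. A member was counted where its mean over the 3 libraries was at least 1 FPKM, and called higher or lower past a difference of 1 (2-fold). A stage with a single library allows no test and no estimate of replicate spread, so every difference here is between 3 libraries, not between stages at large. In bulk RNA, fewer cells of a type and less RNA per cell cannot be told apart. Ratios of FPKM are given with a 95% counting interval from fragments estimated for each gene, which covers counting error only. The libraries held an estimated 45400000, 40800000 and 43500000 fragments in the order localized, invasive, metastatic. The localized library differed from the others in its levels of cell type markers. In the same order, 15 epithelial markers summed to 1203, 6482 and 6982 FPKM, with 5, 12 and 11 of them at 1 FPKM or more. The 12 fibroblast markers summed to 665, 99.6 and 15.6 FPKM, with 10, 6 and 5 at 1 FPKM or more. Ocln was at 0 in the localized library, against 14.1 FPKM in the invasive and 17.6 FPKM in the metastatic library. Lum and Thy1 were at 0 in the metastatic library and above 1 FPKM in the localized one only. Postn was also at 0 in the invasive and metastatic libraries, Esrp1 in the invasive one and Fap in the metastatic one. Those zeros say little, since Postn, Esrp1 and Fap reached at most 0.0148, 0.00607 and 0.0433 FPKM in any library. Whether these differences in marker levels have a part in any difference below was not tested.

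Of the 36 members, 32 passed the filter. The lowest 4, Slc2a3, Fbp1, Pgam2 and Slc16a7, did not. Members summed to 12658, 14520 and 14725 FPKM in the localized, invasive and metastatic libraries, or 2.21%, 2.52% and 2.61% of all FPKM. The 8 members above 500 FPKM in every library were Aldoa, Tpi1, Gapdh, Pgk1, Pgam1, Eno1, Pkm and Ldha, which are the main isozymes of aldolase and of each later step through lactate dehydrogenase. Each of the 8 stayed within 2-fold in every pair of libraries. Among the 32, the localized library was lowest for 20 members and highest for 10, while the metastatic library was highest for 17 and the invasive library for 5. The same order was not counted over all genes, so these numbers describe the members only.

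For metastatic against localized, 5 of 32 members were at least 2-fold higher, where 9.07% of the 11406 genes counted were higher. The 5 were Hk1, Hk2, Pfkfb3, Fbp2 and Aldoc. A further 4 members, Eno2, Eno3, Ldhb and Pdk4, were at least 2-fold lower, against 7.29% of all genes. For invasive against localized, 6 of 32 were higher (8.78% of all genes), namely Hk2, Pfkfb3, Pfkfb4, Fbp2, Aldoc and Pklr. The 4 lower ones (6.08% of all genes) were Eno2, Ldhb, Pdk3 and Pdk4. For metastatic against invasive, Fbp2 was the 1 member higher (1.33% of all genes) and Eno3 the 1 member lower (1.67%). Several of these passed the filter only through the libraries in which they were high. Eno2, Ldhb and Pdk4 did so through the localized library, and Fbp2 and Pklr through the other 2, so their inclusion favours a difference and the counts are a description. The first 2 comparisons share the localized library. The median difference of the 32 members was 0.31 for metastatic against localized and 0.16 for invasive against localized. It was 0.08 between metastatic and invasive. The medians of all genes counted were 0.004, -0.0016 and -0.0085 for the same comparisons.

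**Figure D1:**
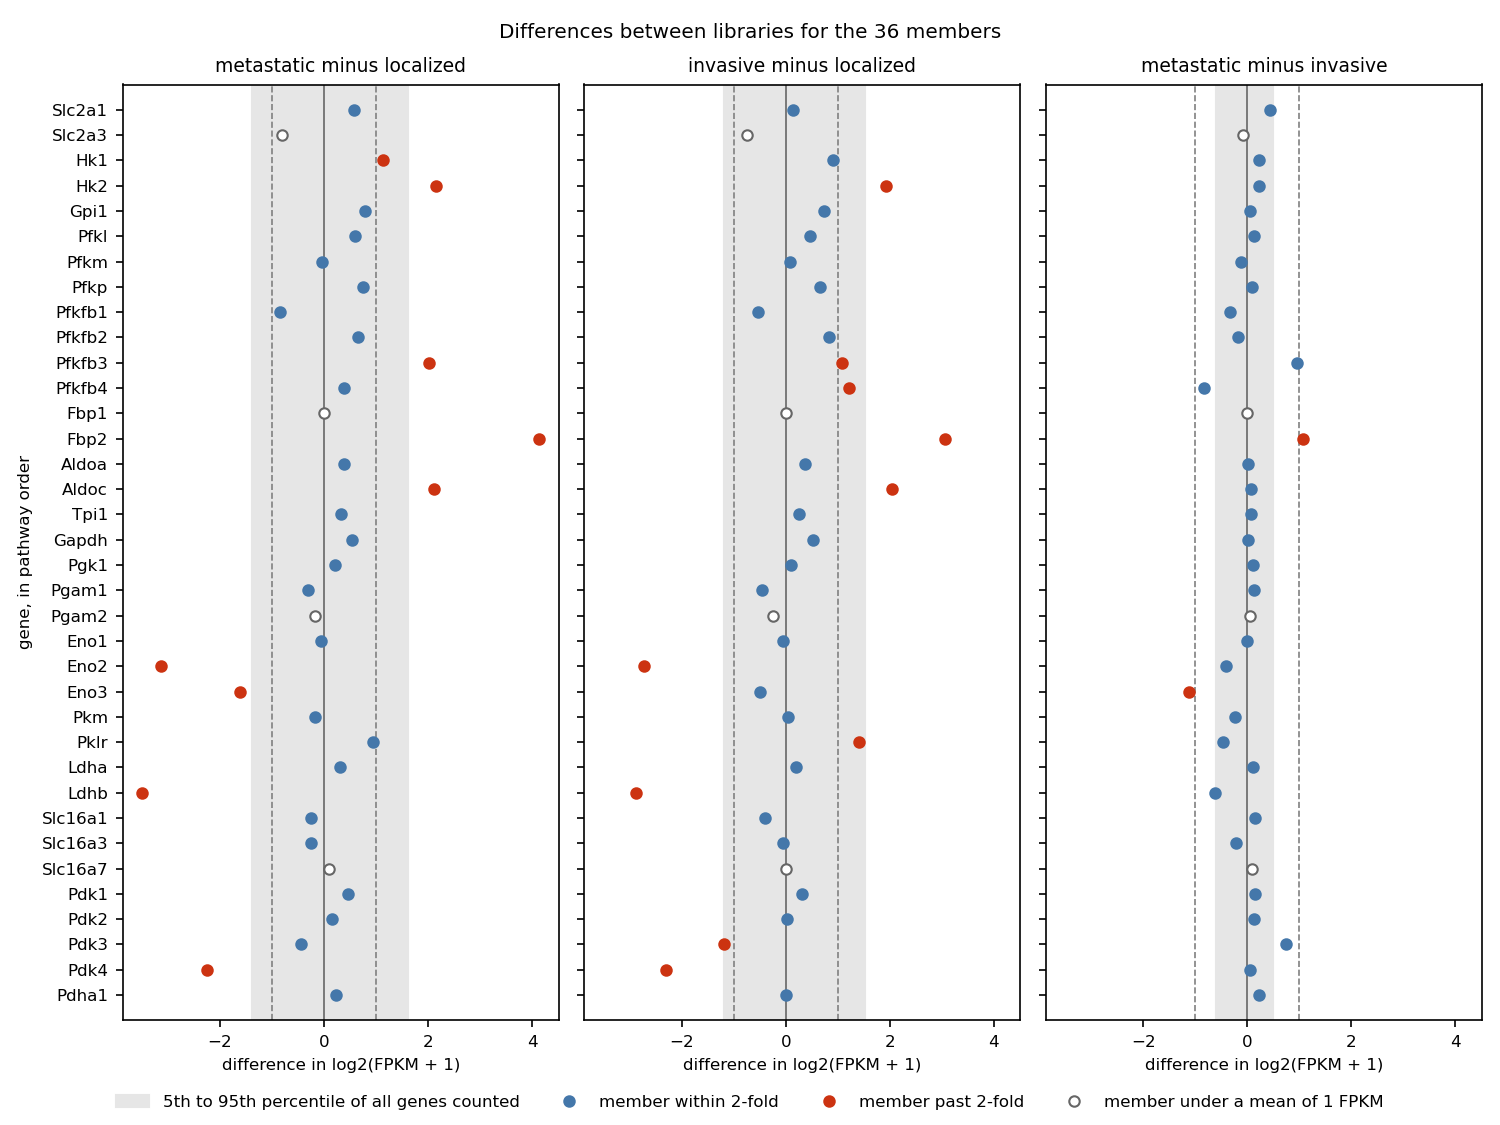
Difference in log2(FPKM + 1) (x axis) of each of the 36 members (y axis, in pathway order) for metastatic minus localized, invasive minus localized and metastatic minus invasive. Grey bands span the 5th to the 95th percentile of all 11406 genes counted, dashed lines mark 2-fold, red points are past 2-fold and open points are members under a mean of 1 FPKM. Fbp2, Hk2 and Aldoc lie to the right and Eno2, Ldhb and Pdk4 to the left of the band in both panels that use the localized library.

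Of the glucose transporters, Slc2a1 (GLUT1), the basal carrier of most cells, had 94.2, 103 and 139.85 FPKM in the localized, invasive and metastatic libraries. Its level was highest in the metastatic library, at 1.35 times the invasive one (95% counting interval 1.32 to 1.38). Slc2a3 (GLUT3), the high-affinity carrier of neurons, was below 1 FPKM throughout, with 0.856, 0.115 and 0.0547 FPKM. Slc2a1 thus supplied 99.1%, 99.9% and 99.96% of the FPKM of this pair.

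Hexokinase was the glycolytic step with the largest change in summed level. Its summed FPKM was 73.2, 172 and 202 in the localized, invasive and metastatic libraries, a metastatic over localized ratio of 2.75. Hk2 (GRCm38 chromosome 6, 82725025 to 82774454, minus strand), the inducible isozyme of muscle, fat and many tumours, had 15.9, 63.2 and 74.2 FPKM. The metastatic and invasive libraries were both far above the localized one, with ratios of 4.67 (4.51 to 4.83) for metastatic over localized and 3.97 (3.83 to 4.12) for invasive over localized. Hk1, the hexokinase that most tissues express, had 57.3, 109 and 127 FPKM. Its difference was 1.14 for metastatic minus localized and 0.91 for invasive minus localized, just short of the 2-fold mark. The share of Hk2 in hexokinase FPKM was 21.7% (21.1 to 22.4) in the localized library. It was 36.8% both in the invasive library (36.3 to 37.3) and in the metastatic one (36.4 to 37.3). Hk1 stayed the larger isozyme in every library. Reads from Hk1os, which overlaps Hk1 on the opposite strand, cannot be told apart without strand information, but that gene was listed at 2.49, 1.74 and 1.58 FPKM.

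Gpi1, which converts glucose-6-phosphate to fructose-6-phosphate, had 362, 602 and 629 FPKM in the localized, invasive and metastatic libraries. The invasive and metastatic values lay close together, 1.66 times (1.64 to 1.68) and 1.74 times (1.71 to 1.76) the localized one. The 3 phosphofructokinase genes kept their order. The liver-type subunit Pfkl had 84.96, 117 and 128 FPKM, the platelet-type Pfkp 34.4, 54.8 and 58.4 FPKM and the muscle-type Pfkm 21.6, 22.8 and 20.8 FPKM. Pfkl supplied between 60.1% and 61.8% in every library, and Pfkm, itself nearly level between libraries, supplied 10.04% in the metastatic library, against 15.3% in the localized one. The Pfkp gene span overlaps Pitrm1 on the opposite strand, which was listed at 27.3, 24.9 and 29.1 FPKM. That of Pfkm overlaps Senp1 on the opposite strand, listed at 8.20, 9.85 and 10.3 FPKM.

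The PFKFB enzymes make and break fructose 2,6-bisphosphate, the strongest activator of phosphofructokinase, and their balance differed in all 3 libraries. Pfkfb3 (GRCm38 chromosome 2, 11471433 to 11554077, minus strand), the isozyme with the highest kinase activity, had 4.89, 11.4 and 22.9 FPKM in the localized, invasive and metastatic libraries. It was about 2-fold higher at each step of the labelled series, with a ratio of 2.33 (2.16 to 2.52) for invasive over localized and 2.01 (1.91 to 2.11) for metastatic over invasive. Pfkfb4 peaked instead in the invasive library, with 10.2, 24.9 and 13.5 FPKM. Pfkfb4 was the largest of the 4 isozymes at the localized (46.9%) and invasive (54.98%) stages, whereas Pfkfb3 was the largest in the metastatic library with 52.3% (51.1 to 53.4). Pfkfb2, the heart-type isozyme, had 3.64, 7.25 and 6.27 FPKM. Pfkfb1, the liver-type isozyme, was lowest in the metastatic library with 2.94, 1.73 and 1.18 FPKM. The Pfkfb2 gene span overlaps Yod1 on the opposite strand, which was listed at 1.44, 2.505 and 2.003 FPKM, and that of Pfkfb1 overlaps Apex2, listed at 5.01, 5.78 and 5.31 FPKM.

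Fbp2 showed the largest difference of any member. This muscle-type fructose-1,6-bisphosphatase runs the reverse of the phosphofructokinase reaction. It lies on GRCm38 chromosome 13, 62836877 to 62858422, minus strand. Fbp2 had 0.157, 8.61 and 19.2 FPKM in the localized, invasive and metastatic libraries, and the localized value is about 8 fragments. The ratio was 123 (64.8 to 298) for metastatic over localized, 54.9 (28.9 to 134) for invasive over localized and 2.23 (1.99 to 2.51) for metastatic over invasive. Fbp1, the liver and kidney isozyme, was listed at 0 in all 3 libraries, where a count of 0 allows up to 0.0509 FPKM in the localized library (3 fragments). Fbp2 and Pfkfb3 were the 2 members at least 1.5-fold higher at both steps of the labelled series, where 1.47% of all genes counted were. Ldhb was the 1 member lower by as much at both steps (1.54% of all genes). Both calls use log2(FPKM + 1). In plain FPKM Eno2 was also lower by as much, with ratios of 0.0680 for invasive over localized and 0.393 for metastatic over invasive. Among markers of skeletal muscle, the usual site of Fbp2, Ckm, Myh1, Myh2 and Myh4 were at 0 in every library, and the 12 markers summed to 2.43, 4.24 and 4.42 FPKM. The troponin gene Tnni2, on the same list, had 0.135, 3.09 and 3.07 FPKM, low in the localized library as Fbp2 was. The rest of the list, Acta1, Myh3, Tnnt3, Mylpf, Myog, Myod1 and Des, was highest in the localized library. Mylpf, the highest of these, had 1.37, 1.14 and 1.24 FPKM. The part of these genes in the Fbp2 difference was not tested.

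**Figure D2:**
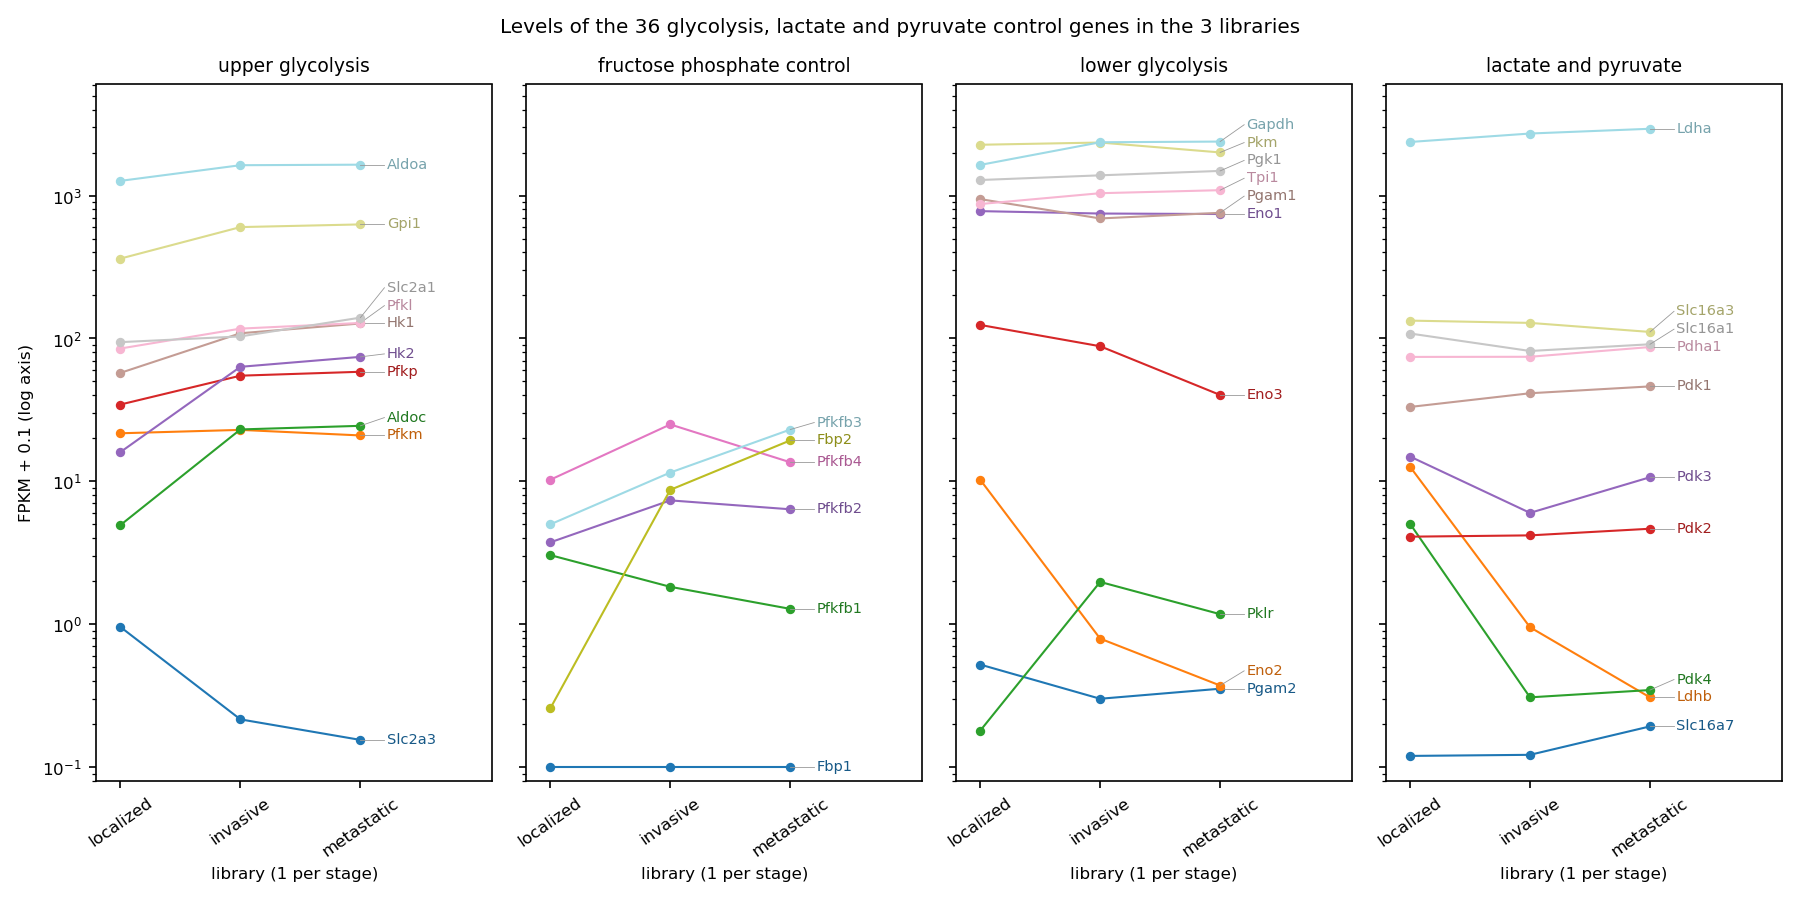
Levels of the 36 members as FPKM + 0.1 on a log axis (y) in the localized, invasive and metastatic libraries (x, 1 library per stage), in 4 panels by place in the pathway. The main isozymes run nearly flat above 500 FPKM, while Fbp2, Hk2, Aldoc and Pklr sit lowest in the localized library and Eno2, Ldhb and Pdk4 highest in it.

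Aldolase was dominated by Aldoa, the broadly expressed isozyme, with 1269, 1633 and 1647 FPKM in the localized, invasive and metastatic libraries. Aldoc (GRCm38 chromosome 11, 78322968 to 78327781, plus strand), the brain-type isozyme, had 4.84, 22.97 and 24.4 FPKM, and its 2 higher libraries were nearly equal. Its ratio was 5.04 (4.604 to 5.52) for metastatic over localized. Even so its share of aldolase FPKM was only 1.46% in the metastatic library, against 0.380% in the localized one.

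The lower steps did not all differ in the same direction. Gapdh, which makes NADH as it oxidises the triose phosphate, had 1641, 2365 and 2391 FPKM in the localized, invasive and metastatic libraries. This made it 1.46 times (1.44 to 1.47) as high in the metastatic as in the localized library. Tpi1, the triose isomerase, had 873, 1039.97 and 1092 FPKM, and Pgk1, the first ATP-producing kinase, 1286, 1387 and 1489.9 FPKM. Pgam1, the phosphoglycerate mutase of most tissues, ran the other way with 946, 692 and 758 FPKM, highest in the localized library. Pgam2, its muscle counterpart, stayed at 0.421, 0.200 and 0.253 FPKM. The mouse genome holds many processed copies of Gapdh, Pgk1, Pgam1, Aldoa, Eno1, Tpi1, Ldha and Pkm, and the handling of reads shared with them is not stated in the labels.

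Enolase changed in its minor isozymes. Eno1, the main form, had 779, 749 and 744 FPKM in the localized, invasive and metastatic libraries, nearly the same in all 3. Eno3, the muscle-type form, had 124, 88.1 and 40.1 FPKM. It was thus highest in the localized library and lowest in the metastatic one, where its share of enolase FPKM was 5.12% (4.92 to 5.32), against 13.6% (13.3 to 13.9) in the localized library. Eno2 (GRCm38 chromosome 6, 124760053 to 124769673, minus strand), the neuron-type form, had 10.2, 0.692 and 0.272 FPKM. Its ratio to the localized level was 0.0267 (0.0181 to 0.0382) in the metastatic and 0.0680 (0.0532 to 0.0862) in the invasive library. Of 6 neural markers, Tubb3 alone reached 1 FPKM and followed the same order with 46.3, 11.2 and 2.67 FPKM, while Rbfox3, Gfap and Syt1 were below 0.1 FPKM in every library and Syp was 0.152, 0.253 and 0.160 FPKM. Snap25 had 0.732, 0.0875 and 0.510 FPKM. The part of these in the Eno2 difference was not tested.

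Pkm, which encodes both the M1 and M2 splice forms of pyruvate kinase, had 2271, 2354 and 2007 FPKM in the localized, invasive and metastatic libraries. The table sums a gene's transcripts, so the splice choice between M1 and M2 was not analysed here. Pklr, the liver and red-cell form, had 0.0793, 1.88 and 1.07 FPKM. Its difference of 1.41 for invasive minus localized rested on about 208 fragments in the invasive library, against 10 in the localized one. Pklr never exceeded 0.0796% of pyruvate kinase FPKM. Of 12 hepatocyte markers, Hnf4a alone reached 1 FPKM, with 11.9, 24.1 and 34.2 FPKM, while Ahsg, Fga, Fgb, Serpina1a, Tat and Cps1 were at 0 in every library and Alb was at most 0.0586 FPKM.

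**Figure D3:**
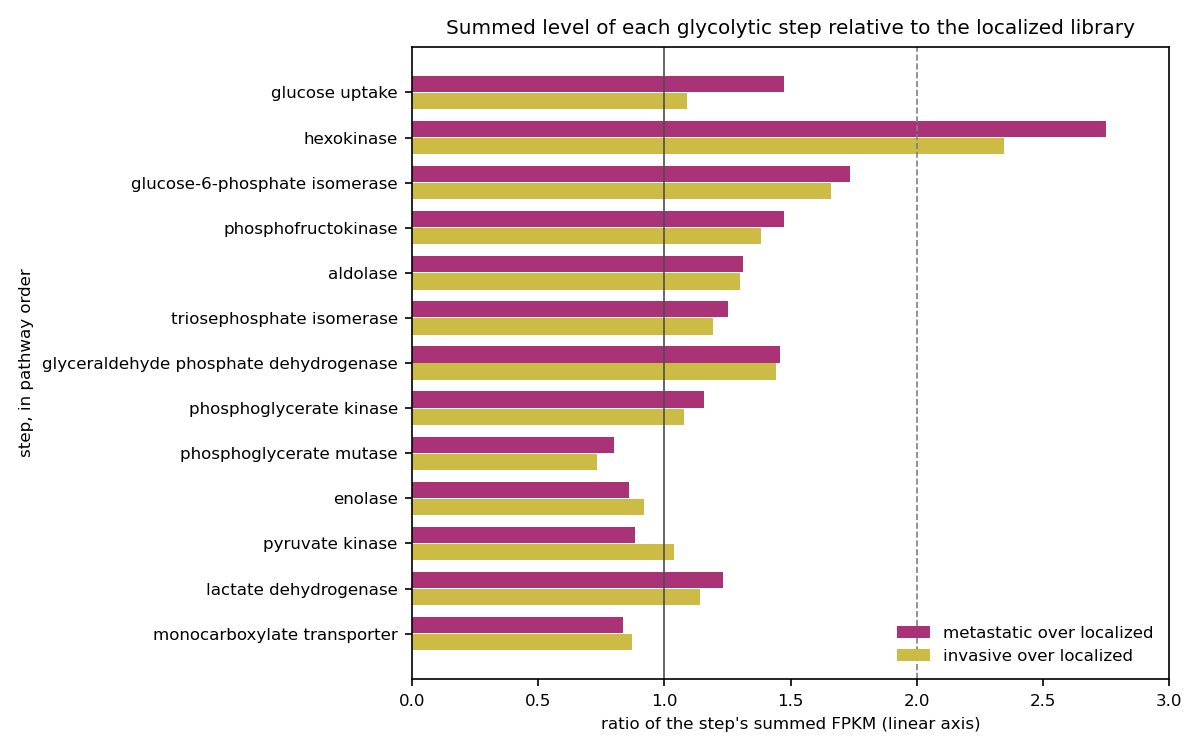
Ratio of the summed FPKM of all member isozymes of a step (x axis, linear) to that of the localized library, for the metastatic and the invasive library, with steps in pathway order from top to bottom. Hexokinase reaches 2.75 and 2.35, steps from uptake to phosphoglycerate kinase are above 1, and phosphoglycerate mutase and enolase are below it in both.

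Summed over isozymes, the steps from glucose uptake to phosphoglycerate kinase were all higher in the invasive and metastatic libraries than in the localized one. Among the later steps, lactate dehydrogenase was also higher in both, phosphoglycerate mutase, enolase and the lactate carriers were lower in both, and pyruvate kinase was split. For metastatic over localized the ratios were 1.47 for uptake, 2.75 for hexokinase, 1.74 for the isomerase, 1.47 for phosphofructokinase and 1.31 for aldolase. They were 0.801 for phosphoglycerate mutase, 0.858 for enolase and 0.884 for pyruvate kinase. Hexokinase was the 1 step of these past 2-fold. The summed PFKFB level was also about 2-fold, with 43.9 FPKM in the metastatic library, against 21.6 FPKM in the localized library.

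Lactate dehydrogenase was almost wholly Ldha, the pyruvate-reducing muscle-type subunit, with 2375, 2722 and 2939 FPKM in the localized, invasive and metastatic libraries. Ldhb (GRCm38 chromosome 6, 142490249 to 142507957, minus strand), the heart-type subunit that favours lactate oxidation, had 12.6, 0.852 and 0.207 FPKM. It was highest in the localized library, and the metastatic value corresponds to about 10 fragments. Its ratio to the localized level was 0.0678 (0.0477 to 0.0936) in the invasive and 0.0165 (0.00777 to 0.0301) in the metastatic library. Ldha exceeded Ldhb by 189-fold for the localized, 3197-fold for the invasive and 14200-fold for the metastatic library. Because Ldha was far above Ldhb everywhere, the Ldhb share went no higher than 0.526% (0.486 to 0.568), its value in the localized library.

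The lactate carriers differed little. Slc16a3 (MCT4), the export carrier of glycolytic cells, had 133, 128 and 111 FPKM in the localized, invasive and metastatic libraries. Slc16a1 (MCT1), which works in both directions, had 108, 81.6 and 90.98 FPKM. Slc16a3 was the larger of the pair in every library, with 55.2%, 61.1% and 54.9%. Slc16a7 (MCT2) stayed below 0.1 FPKM, with 0.0195, 0.0216 and 0.0924 FPKM. Bsg (basigin), the chaperone that brings MCT1 and MCT4 to the membrane, had 759, 991 and 896 FPKM. Emb (embigin), its relative and the main partner of MCT2, had 12.2, 0.615 and 1.90 FPKM and was highest in the localized library.

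At the pyruvate dehydrogenase step the target was nearly level and its kinases shifted. Pdha1, the catalytic subunit that the kinases phosphorylate, had 74.2, 74.3 and 87.0 FPKM in the localized, invasive and metastatic libraries. Pdk1, a HIF-1 target, had 33.1, 41.3 and 46.1 FPKM, highest in the metastatic library but within 2-fold. Pdk4 (GRCm38 chromosome 6, 5483351 to 5496309, minus strand), the kinase induced by fasting and fatty acids, had 4.95, 0.207 and 0.246 FPKM. It was about as low in the metastatic as in the invasive library, with ratios to the localized level of 0.0497 (0.0340 to 0.0691) and 0.0419 (0.0277 to 0.0612). Pdk3 had 14.8, 5.91 and 10.6 FPKM, lowest in the invasive library, and Pdk2 had 3.996, 4.08 and 4.56 FPKM. As a share of the kinases' FPKM, Pdk1 supplied 58.2%, 80.2% and 74.98%, least in the localized library.

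**Figure D4:**
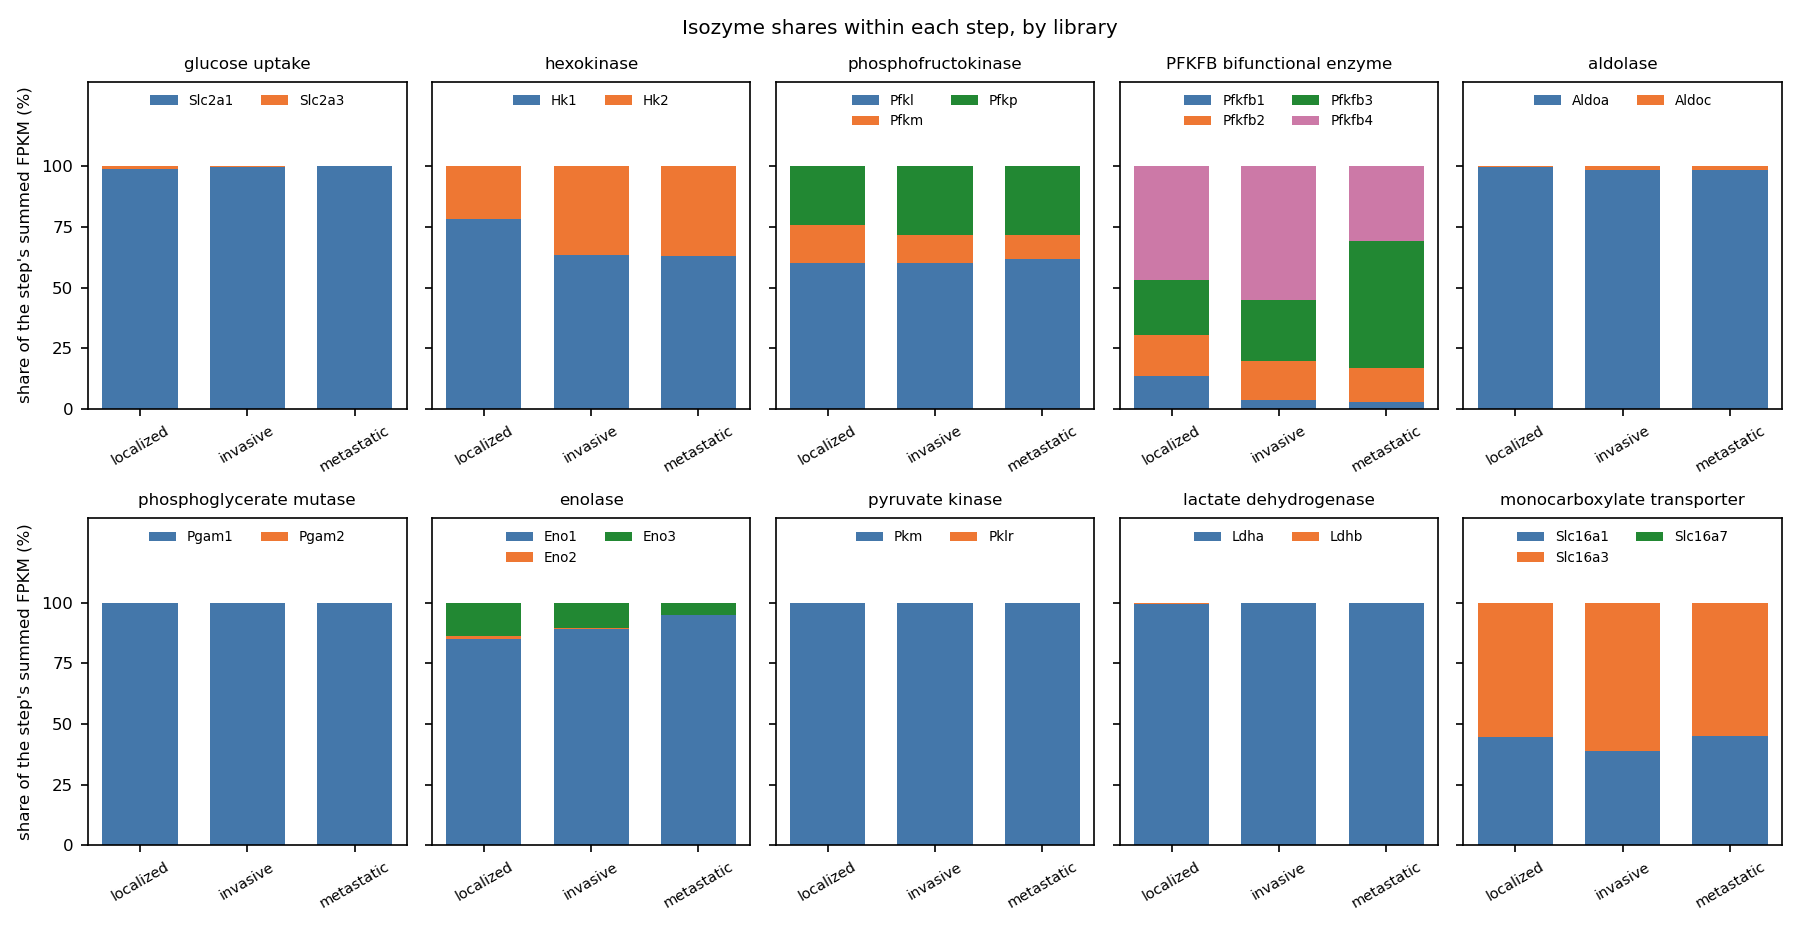
Share of each isozyme in the summed FPKM of its step (y axis, percent) in the localized, invasive and metastatic libraries (x axis), for 10 steps with several member genes. The Hk2 share is 21.7%, 36.8% and 36.8%, Pfkfb3 replaces Pfkfb4 as the largest PFKFB isozyme in the metastatic library with 52.3%, and the Eno3 share is lowest there with 5.12%.

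Promoter sequence is shown for the members with the largest differences in log2(FPKM + 1) for metastatic against localized. These are the highest 2 (Fbp2 and Hk2) and the lowest 2 (Ldhb and Eno2). By the plain ratio of FPKM, the counted members Pklr (13.6), Aldoc (5.04) and Pfkfb3 (4.69) were also above Hk2 (4.67). Each window runs from 250 bases before to 50 after the annotated start (RefSeq, GRCm38.p6), 5′ to 3′ on the gene's strand. Capitals mark the hypoxia response core letters ACGTG or GCGTG on either strand, which read CACGT or CACGC when the core lies on the opposite strand. Where CACGTG occurs, the core is read on both strands and the 2 matches overlap.
Fbp2 promoter, chr13:62858351-62858650, minus strand: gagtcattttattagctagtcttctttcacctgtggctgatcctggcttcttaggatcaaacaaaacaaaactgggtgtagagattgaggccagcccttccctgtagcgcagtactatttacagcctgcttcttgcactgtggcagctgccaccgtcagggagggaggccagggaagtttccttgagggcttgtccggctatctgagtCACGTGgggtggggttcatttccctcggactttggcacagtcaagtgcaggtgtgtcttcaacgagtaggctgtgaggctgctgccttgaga
Hk2 promoter, chr6:82774405-82774704, minus strand: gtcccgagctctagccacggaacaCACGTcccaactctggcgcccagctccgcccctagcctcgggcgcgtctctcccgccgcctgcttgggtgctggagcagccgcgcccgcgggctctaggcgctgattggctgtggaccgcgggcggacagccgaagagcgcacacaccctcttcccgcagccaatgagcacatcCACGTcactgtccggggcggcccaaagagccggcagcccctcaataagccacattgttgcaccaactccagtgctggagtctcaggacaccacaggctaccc
Ldhb promoter, chr6:142507908-142508207, minus strand: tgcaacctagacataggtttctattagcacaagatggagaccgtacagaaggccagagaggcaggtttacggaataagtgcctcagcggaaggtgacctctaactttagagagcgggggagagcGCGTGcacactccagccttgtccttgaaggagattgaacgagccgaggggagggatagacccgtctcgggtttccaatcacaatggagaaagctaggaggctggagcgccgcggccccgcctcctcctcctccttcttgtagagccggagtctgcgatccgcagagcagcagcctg
Eno2 promoter, chr6:124769624-124769923, minus strand: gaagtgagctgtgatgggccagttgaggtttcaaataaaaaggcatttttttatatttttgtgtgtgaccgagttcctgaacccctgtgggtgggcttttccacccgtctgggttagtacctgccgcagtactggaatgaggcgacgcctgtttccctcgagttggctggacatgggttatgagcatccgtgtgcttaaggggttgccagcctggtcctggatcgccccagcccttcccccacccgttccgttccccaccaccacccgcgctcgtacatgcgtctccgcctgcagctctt
The Fbp2 window holds CACGTG once, the Hk2 window holds the ACGTG core at 2 places, both on the opposite strand, the Ldhb window holds GCGTG once and the Eno2 window holds neither core. Promoter windows were found for 34 of the 36 members, with 54 windows in all. At least 1 of the cores was present in 70.4% of these windows, against 43.8% of all 32851 windows of the same length. ACGTG was present in 40.7% of member windows and 19.6% of all windows, and GCGTG in 50% and 32.4%. The member windows also had a median of 15 CG dinucleotides, against 7 over all windows, and the part of base composition was not tested. All 4 members at least 2-fold higher in both the metastatic and the invasive library (Hk2, Pfkfb3, Fbp2 and Aldoc) held ACGTG in a window, and none of the 3 lower in both (Eno2, Ldhb and Pdk4) did, though Ldhb and Pdk4 held GCGTG. The genes of both groups were picked by their differences in the same libraries, so the contrast is a description. The higher group has 6 windows in all and the lower group 3. Counted by gene, 18 of 34 members and 5886 of 27025 genes held ACGTG in a window. A match is a run of letters and not a shown binding site, and the steady members Ldha, Pgk1 and Pkm hold ACGTG as well.

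Genes around the pathway were compared through 5 further lists. Of 28 other isozymes and carriers 10 passed the filter, and 3 of these were at least 2-fold higher and 2 lower for metastatic against localized. Over all genes counted, 9.07% were higher and 7.29% lower. Slc2a6 (GLUT6), a lysosomal glucose transporter family member, had 1.08, 34.2 and 23.6 FPKM in the localized, invasive and metastatic libraries and showed the largest difference. Adpgk, a hexokinase that uses ADP, had 22.7, 12.1 and 10.3 FPKM, highest in the localized library. Galm, which interconverts glucose anomers, had 8.17, 13.6 and 21.8 FPKM. Ldhd, also at least 2-fold higher for metastatic against localized, had 1.77, 3.36 and 5.48 FPKM. The alternative isozymes Hk3, Pgk2 and Ldhc were listed at 0 in all libraries.

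Mitochondrial pyruvate entry and the pentose phosphate branch were set beside all genes in the same way. Of 16 pyruvate entry and gluconeogenesis genes past the filter, 0 were past 2-fold for metastatic against localized, where 9.07% of all genes were higher and 7.29% lower. For invasive against localized 2 were higher and 0 lower, where 8.78% of all genes were higher and 6.08% lower. The 2 higher genes were the malic enzyme Me1 (31.4, 77.9 and 57.4 FPKM) and the mitochondrial PEP carboxykinase Pck2 (23.5, 52.9 and 28.3 FPKM), both highest in the invasive library. Mpc1, a subunit of the mitochondrial pyruvate carrier, had 33.4, 37.3 and 46.1 FPKM. The gluconeogenic G6pc was listed at 0 in every library. Of 10 pentose phosphate genes, 0 were past 2-fold in any pair. For metastatic against invasive, 1.33% of all genes were higher and 1.67% lower. With lists this short, such counts are a description. The median difference for invasive against localized was 0.23 in the pyruvate entry list and 0.18 in the pentose phosphate list, against 0.16 for the members. The largest difference there for invasive against localized was in transketolase, Tkt, with 122, 220.0 and 183 FPKM.

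The regulators numbered 17 after the filter, of which 6 were at least 2-fold higher and 1 lower for metastatic against localized, and likewise 6 and 1 for invasive against localized. The shares over all genes were 9.07% and 7.29% for metastatic, and 8.78% and 6.08% for invasive, against localized. Egln3, an oxygen-sensing prolyl hydroxylase that HIF itself induces, had 24.2, 152 and 195 FPKM in the localized, invasive and metastatic libraries. Arrdc4 and Txnip, arrestin-family genes that are induced by glucose metabolites and hold down glucose uptake, had 3.43, 16.1 and 20.3 FPKM and 72.1, 262 and 147 FPKM. Arrdc4 was thus highest in the metastatic and Txnip in the invasive library. Arnt2, a partner of HIF proteins, was lower, with 2.98, 0.436 and 0.199 FPKM. Hif1a itself had 43.4, 49.8 and 69.3 FPKM, and Myc 59.1, 57.6 and 49.6 FPKM, both within 2-fold. Their relatives Epas1 (0.325, 2.39 and 2.08 FPKM) and Mycn (0.208, 2.42 and 2.03 FPKM) were at least 2-fold higher in both other libraries. Each was under 1 FPKM in the localized library.

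All 15 hypoxia targets outside glycolysis had a mean of at least 1 FPKM, and 5 were at least 2-fold higher and 1 lower for metastatic against localized, with a median difference of 0.67, where 9.07% of all genes were higher and 7.29% lower. For invasive against localized, 4 were higher and 1 lower with a median of 0.42, where 8.78% and 6.08% of all genes were. Egln3 is on this list too. The vasodilator peptide gene Adm had 2.58, 8.03 and 20.6 FPKM and the oxidoreductase Ero1l 64.6, 263 and 203 FPKM in the localized, invasive and metastatic libraries. The carbonic anhydrase Car9, a widely used hypoxia marker, was highest in the localized library with 48.1, 7.23 and 4.15 FPKM. Bnip3, Vegfa and P4ha1 each stayed within 2-fold in every pair of libraries, with 153, 119 and 162 FPKM for Bnip3. Whether cobalt exposure has a part in these levels was not tested, since all 3 libraries carry the same treatment text.

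**Figure D5:**
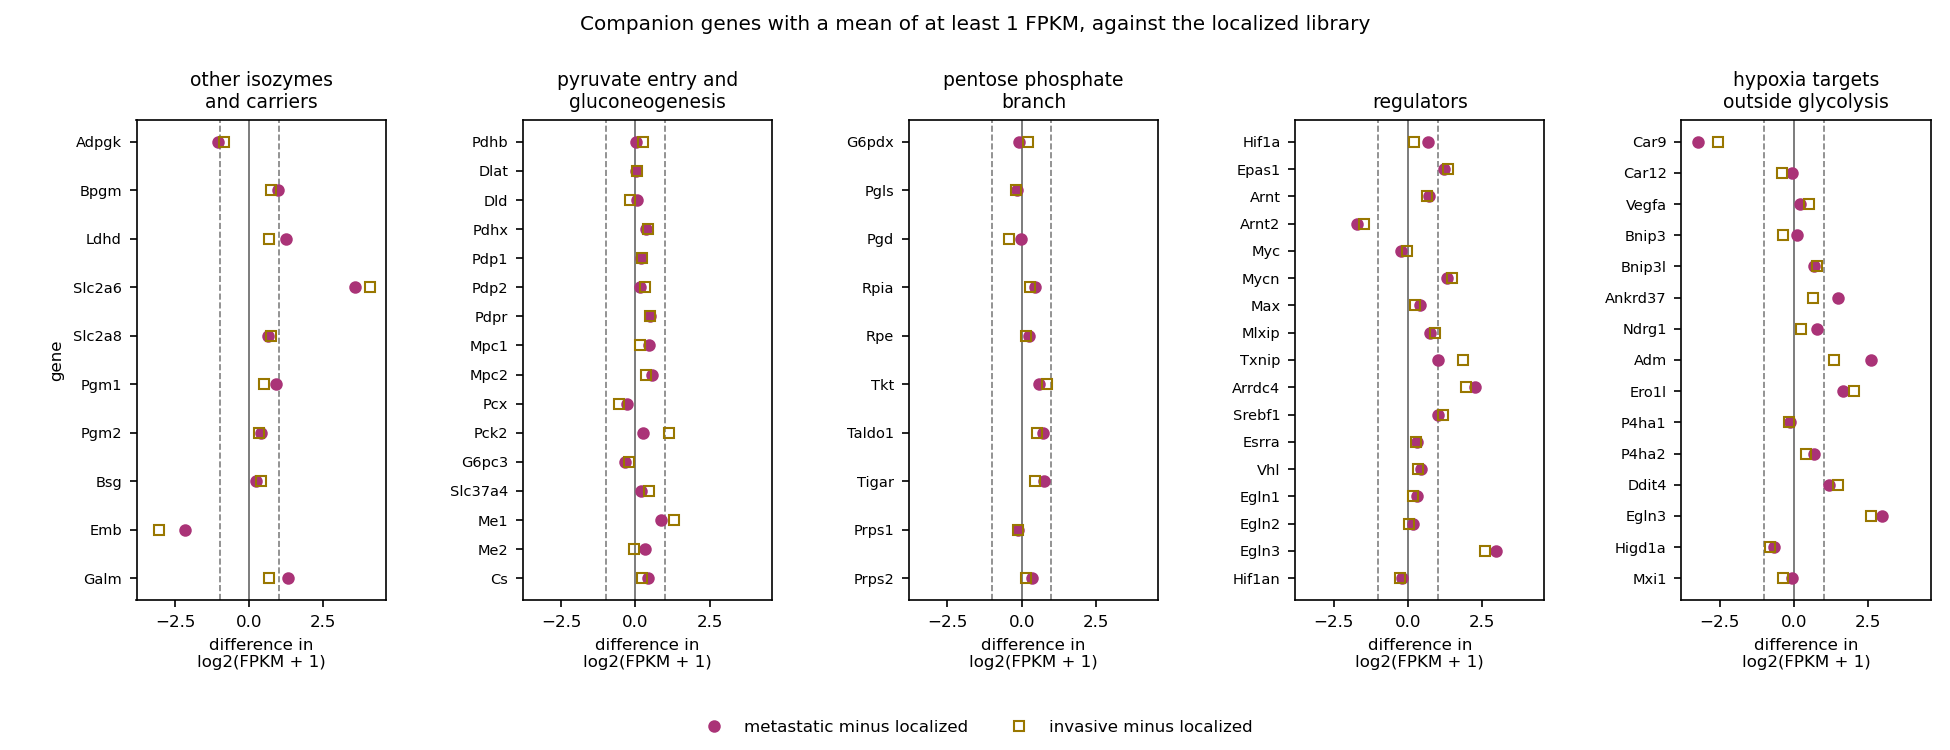
Difference in log2(FPKM + 1) (x axis) from the localized library of companion genes with a mean of at least 1 FPKM (y axis), for the metastatic (filled circles) and invasive (open squares) libraries, in 5 lists. Dashed lines mark 2-fold. Slc2a6 and Egln3 lie farthest to the right and Car9 farthest to the left for metastatic minus localized, while all pentose phosphate genes lie inside the lines.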

How the data were processed

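The deposited table gives FPKM per gene in 1 column per library, made by the authors. Cufflinks 2.2.1, STAR 2.5.2a and FastQC 0.11.2 are named with the GRCm38 build in the submitters' processing notes, without their roles. Strand, read layout and gene annotation are not given in the sources used here. The lowest deposited FPKM was exactly 0.1 in each column, so 0.1 was subtracted. Of 22784 entries, 27 were spreadsheet date numbers and were left out. Coordinates and transcript lengths came from GENCODE M21 (GRCm38).

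Fragments per library were estimated from low values of genes with a single transcript, in which 77.8% to 79.0% of values came within 0.08 of a whole number, against 16% for evenly spread values. The estimate was tested on simulated data. Fragments of a member used its longest coding transcript, so intervals (95%, Clopper-Pearson) are approximate. 1 engineered allele of the genotype label is not reported here.

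All members are described. Of companion genes, the text names up to 4 per list past 2-fold, with Ldhd, Epas1 and Mycn besides. It also names some others, which were chosen after their values were seen. The members and lists were chosen with earlier results of these data known. Calculations used Python 3.11.15 with pandas 2.3.3, and groups came from the stage label. Alternatives changed the pseudocount, filter, subtraction, scaling and threshold.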

Additional observations from a re-analysis of the deposited data

How the results depend on the processing

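No paired analysis was possible because each stage has 1 library, and no library could be left out. The calls kept all their genes under a pseudocount of 0.1 FPKM, rescaling to the same total and centring on the median of all genes, and no called difference changed sign under these 3. With a pseudocount of 0.1 FPKM, Pfkfb1 and Pklr were also called for metastatic against localized. Eno2 and Ldhb were also called for metastatic against invasive, for which the members lower then numbered 3 instead of 1. A mean of at least 5 FPKM left 1 lower member instead of 4 for metastatic against localized and likewise 1 for invasive against localized, since Eno2, Ldhb and Pdk4 fall under it. The median difference for metastatic against localized was 0.22 without a filter and 0.38 with the 5 FPKM filter, and 0.0925 and 0.28 for invasive against localized. At 1.5-fold, 10 members were higher and 5 lower for metastatic against localized, and 10 higher and 4 lower for invasive against localized. At that threshold 3 were higher and 3 lower for metastatic against invasive. For these pairs the shares over all genes were not computed at 1.5-fold, with the pseudocount of 0.1 FPKM or with the 5 FPKM filter. Counts under those settings describe the members only. Without subtracting 0.1, 17 of 93 isozyme shares moved, all in steps with a member under 1 FPKM. Of these, 6 were the Fbp1 and Fbp2 shares, which had no counting interval, and the others left theirs as rounded. The metastatic Ldha share was 99.99% both ways, against a bound rounded to 99.99%, and the matching Ldhb share stayed within its interval. Values below about 0.1 FPKM rest on few fragments, and depth does not replace the missing replicates.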

Other observations

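Fbp2 and Fbp1 lie 6.33 kb apart on GRCm38 chromosome 13, yet Fbp1 was listed at 0 in every library while Fbp2 had 0.157, 8.61 and 19.2 FPKM in the localized, invasive and metastatic libraries. Eno2 and Tpi1 lie 40.9 kb apart on chromosome 6, with Gapdh 347 kb beyond Tpi1. For metastatic minus localized, the log2 difference was -3.13 for Eno2, 0.32 for Tpi1 and 0.54 for Gapdh.

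The gene for Tigar, a phosphatase that lowers fructose 2,6-bisphosphate, is listed under an older name and had 2.12, 3.27 and 4.31 FPKM in the localized, invasive and metastatic libraries. Bpgm, which makes 2,3-bisphosphoglycerate from a glycolytic intermediate, had 19.8, 33.3 and 40.3 FPKM, and its difference of 0.99 for metastatic minus localized fell just under the 2-fold mark.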
